A study of Mus musculus with 10 samples.

Results

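The regions described here are those where resting RAW264.7 macrophages had a p65 peak that was not called after lipopolysaccharide (LPS). RAW264.7 is an established macrophage-like line that grew out of an Abelson leukaemia virus tumour of a male mouse. Treatment lasted 12 h and consisted of the solvent DMSO alone, of DMSO and LPS (LPS below), or of LPS and skatole (LPS+Skatole), and each CUT&Tag library was made from 200000 cells. There were 3 libraries per group with a peak list, and a Blank sample made without primary antibody was not analysed here. The labels name an antibody to p65 and the methods of the study one to phosphorylated p65, so the form that was captured is not known. Peaks of the 9 lists on chromosomes 1 to 19, X and Y that shared 1 bp or more were joined, which gave 235070 merged regions. A region was chosen by 3 conditions on the calls, namely a peak in 2 or 3 of the 3 DMSO libraries, in 0 of the 3 LPS libraries and in at most 2 of the 3 LPS+Skatole libraries. This gave 1069 regions, called lost regions below, which were 0.455% of all merged regions. The name rests on these calls alone and does not mean that less p65 binding was measured after LPS. Of the 23228 resting regions, which had a peak in 2 or 3 DMSO libraries, they made up 4.6%. The remaining comparison set was the 22048 kept regions, with a peak in 2 or 3 DMSO libraries and in at least 1 LPS library. The DMSO and LPS calls chose the members, so these calls and the DMSO peak heights are given as a description without a test.

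p65 (RelA) is the activating subunit of the most common NF-κB dimer. In unstimulated cells most of it is held in the cytoplasm by IκB proteins, and LPS, acting through the receptor TLR4, leads to IκB phosphorylation and breakdown, so that p65 enters the nucleus and binds κB sites at promoters and enhancers. Skatole is an indole that gut bacteria make from tryptophan. In CUT&Tag a transposase tethered to the antibody cuts the DNA around the bound protein and the fragments are sequenced, so a peak is a place where many fragments pile up. The measurement is made on a population, and fewer cells with an occupied site cannot be told apart from less occupancy per cell.

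A subset of the lost regions covered gene starts, and for these the RefSeq promoter table (GRCm38.p6) gives the sequence. The 3 lost regions over a gene start that had a peak in all 3 DMSO libraries and in none of the other 6 libraries lay at Plk1, Mcm6 and Agbl5. Plk1 encodes a mitotic kinase, Mcm6 a subunit of the replicative MCM helicase and Agbl5 a carboxypeptidase that trims glutamate chains from tubulin. Gcc1, a Golgi coiled-coil protein gene whose start was called in all DMSO libraries and in 1 LPS+Skatole library, is shown as well. The 250 bases before the annotated start are printed 5′ to 3′ on the strand of the gene. Capitals mark matches, on either strand, to any of the letters searched: a κB-like site (GGNNTTTCC), an AP-1 site (TGANTCA), a PU.1 core (GAGGAAGT), a C/EBP site (TTGCGCAA), part of the CTCF core (AGGTGGCAG), a GC box (GGGGCGGGG), a CCAAT box (CCAAT), an E2F-like site (TTTNNCGC) and a CHR element (TTTGAA). The last 3 of these were added after the genes had been seen. Matches on opposite strands can overlap, as at the E2F-like pair of Mcm6.
Plk1: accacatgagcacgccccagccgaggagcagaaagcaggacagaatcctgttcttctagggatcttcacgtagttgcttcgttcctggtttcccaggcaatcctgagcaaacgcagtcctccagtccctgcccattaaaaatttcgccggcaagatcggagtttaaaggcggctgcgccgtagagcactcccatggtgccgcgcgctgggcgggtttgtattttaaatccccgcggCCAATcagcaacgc
Mcm6: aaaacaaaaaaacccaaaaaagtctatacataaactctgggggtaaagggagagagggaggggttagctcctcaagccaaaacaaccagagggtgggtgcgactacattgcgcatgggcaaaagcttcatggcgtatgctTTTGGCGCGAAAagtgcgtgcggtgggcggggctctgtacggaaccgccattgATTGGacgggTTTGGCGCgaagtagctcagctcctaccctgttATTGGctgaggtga
Agbl5: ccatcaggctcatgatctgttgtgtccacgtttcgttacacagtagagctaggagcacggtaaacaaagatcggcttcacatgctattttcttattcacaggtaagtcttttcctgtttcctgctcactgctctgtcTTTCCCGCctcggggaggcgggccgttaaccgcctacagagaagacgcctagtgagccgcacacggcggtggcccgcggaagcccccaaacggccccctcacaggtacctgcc
Gcc1: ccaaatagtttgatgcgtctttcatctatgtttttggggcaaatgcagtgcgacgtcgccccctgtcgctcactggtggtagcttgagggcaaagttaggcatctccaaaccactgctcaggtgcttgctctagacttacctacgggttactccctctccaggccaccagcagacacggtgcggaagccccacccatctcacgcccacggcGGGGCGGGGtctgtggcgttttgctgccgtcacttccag

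These stretches lie at chr7:122159185-122159434 (plus strand, Plk1), chr1:128359706-128359955 (minus strand, Mcm6), chr5:30888602-30888851 (plus strand, the most upstream of 3 listed starts of Agbl5) and chr6:28421725-28421974 (minus strand, Gcc1), and all 250 bases of each lie inside the lost region. None of the 4 stretches holds a match to the κB-like letters. Over the 50 windows at gene starts covered by lost regions, which overlap where starts lie close together, 2 (4%) held a κB-like match, beside 5.19% of the 9500 windows covered by kept regions and 4.93% of all 32817 windows in the table. A CCAAT box was found in 38%, 37.1% and 33.8% of the same 3 sets, and counted by region at 14 of 40 lost regions (35%) and 41.6% of 6952 kept regions, so the order of lost and kept turns with the way of counting. GC boxes were present in 14% of the windows of lost regions, 20% of those of kept regions and 10.4% of all windows (15% of lost and 23.4% of kept regions). E2F-like letters were in 9 of the 50 windows (18%), beside 8.04% in kept regions and 4.28% of all windows. The 3 starts of Agbl5 share 1 such match, and counted by region the letters were found at 7 lost regions (17.5%) and 9.55% of kept regions. The PU.1 core was matched in 3 windows at 2 regions (6% of windows, beside 2.8% and 2.44%) and the CHR element in 3 (6%, beside 10.3% and 16%). AP-1, C/EBP and CTCF letters had 0 matches in the 50 windows, beside 6.75%, 0.165% and 0.64% of all windows. A match is a description of letters and not a binding site.

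The heights at these starts were given by the number of fragments at the peak summit, which was recovered from the deposited values. At the Plk1 start the 3 DMSO libraries had 38, 44 and 67 fragments at the summit. The Mcm6 start had 81, 103 and 87, and the Agbl5 start had 113, 98 and 158. At the Gcc1 start the counts were 47, 71 and 46 in DMSO and 91 in LPS+Skatole 2. The DMSO counts at Agbl5 and Mcm6 were all above those at Plk1 and Gcc1, and the LPS lists held no peak in any of these regions. The other 4 lost regions over a gene start with a peak in all DMSO libraries were at Pdk1 (a kinase that inhibits pyruvate dehydrogenase), Exosc10 (a catalytic subunit of the nuclear RNA exosome), Arrdc3 (an arrestin-domain protein) and Alg13 (a subunit of an enzyme of N-glycan synthesis). Pdk1 had 52, 27 and 56 fragments in DMSO, and 73 and 38 in LPS+Skatole 1 and 2. The counts for Exosc10 were 38, 32 and 52 in DMSO and 79 in LPS+Skatole 2. At Arrdc3 they were 32, 67 and 67 in DMSO and 49 in LPS+Skatole 1. Alg13 was the lowest, with 12, 18 and 18 in DMSO, and 41 and 37 in LPS+Skatole 2 and 3. The plot of summit counts at gene starts shows these values.

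**Figure D1:**
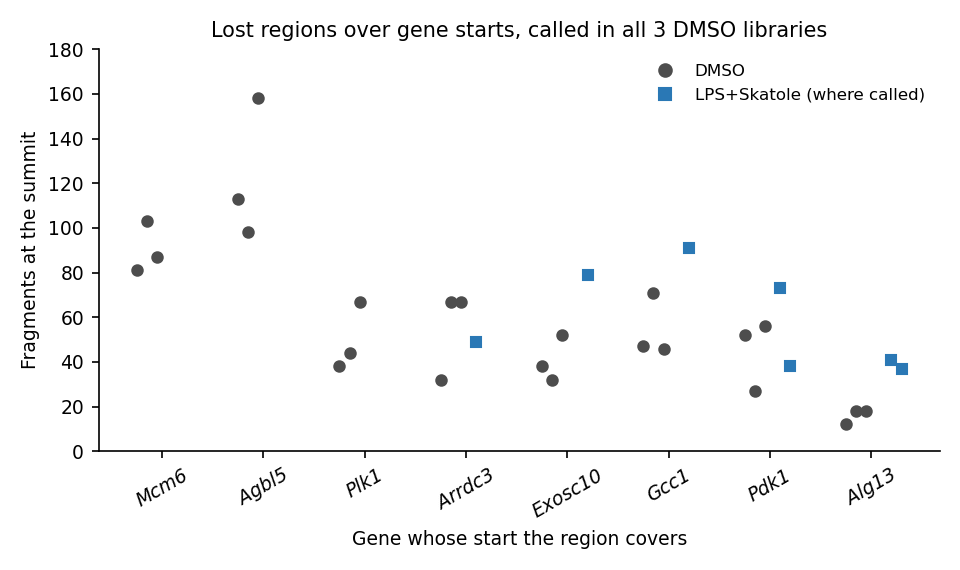
Fragments at the summit (vertical axis) in each library at the 8 lost regions that cover a gene start and have a peak in all 3 DMSO libraries. Circles are DMSO libraries and squares are the LPS+Skatole libraries that had a peak; Agbl5 had the highest DMSO counts, from 98 to 158, and Alg13 the lowest, from 12 to 18.

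Tall summits at gene starts stood on a raised surrounding signal. The local background, against which the caller tested each peak, is given here in multiples of the genome background of the same library. At the Mcm6 start it was 35.5, 34.8 and 35.4 times the genome background in the 3 DMSO libraries, and at Agbl5 63.3, 40.6 and 69.5 times. At the Plk1 start it was 9.87, 4.79 and 19.7 times. Their mean percentile in the DMSO lists (100 being the peak with the smallest p) was modest, at 29.2 for Mcm6, 17.6 for Agbl5 and 49.6 for Plk1. In LPS 1, 2 and 3 the gap to the nearest peak was 590, 590 and 985 bp at Plk1. It was 9562, 1066 and 965 bp at Mcm6, and 12733, 10027 and 9237 bp at Agbl5. Peaks of all LPS libraries thus lay beside the lost region at Plk1 without touching it. At Mcm6 this held for LPS 2 and 3, while the nearest peak of LPS 1 was farther off.

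In all, 40 of the 1041 lost regions on chromosomes other than 18, for which starts were used, covered an annotated gene start (3.84%), beside 32.4% of 21474 kept regions. Merged lost regions had a median width of 755 bp and kept regions of 1849 bp. The sets were not matched here for width or for the number of DMSO libraries. The 40 had a median summit count over the DMSO peaks of 35.5, beside 14 in the other 1001 lost regions. The median local background was 6.37 times the genome background, beside 1 in the others. Of the 40, 23 (57.5%) had an LPS peak within 1 kb, beside 36.8% of the others. The part that the raised surrounding signal had in the missing LPS call was not tested. Other starts in this set included that of Parp2, an ADP-ribose polymerase of DNA repair, with 77 and 121 fragments in DMSO 1 and 3 and 203 in LPS+Skatole 3. The start of Ctps, the CTP synthase gene, had 73 and 85 in DMSO 2 and 3, and 93 and 56 in LPS+Skatole 2 and 3. The Ufsp2 start (a protease of the UFM1 pathway) had 70 and 81 in DMSO 2 and 3 and no call elsewhere.

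Most lost regions sat at the edge of the rule. A peak in exactly 2 of 3 DMSO libraries was found for 994 of the 1069 (93%), and 75 (7.02%) had a peak in all 3. In kept regions 70.6% had all 3. Among the 994, the missing library was DMSO 1 in 419, DMSO 2 in 274 and DMSO 3 in 301. DMSO 1 was also the library with the shortest list (37551 peaks) and the lowest genome background (1.09 fragments). Just outside the rule on the DMSO side lay 35056 regions with a peak in 1 DMSO library, 0 LPS libraries and at most 2 LPS+Skatole libraries. On the LPS side 1075 regions would have been members but for a peak in 1 LPS library. A further 111 regions had 2 or 3 DMSO libraries and 0 LPS libraries but all 3 LPS+Skatole libraries. The mean DMSO percentile had a median of 20.9 in the regions with 1 DMSO library, 34.1 in the members, 40.9 in the regions with 1 LPS library and 42.7 in the 111. Members thus ranked between the neighbours on the 2 sides, as a matter of description.

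The resting regions formed a continuous series by the number of LPS libraries with a peak. With 0, 1, 2 and 3 LPS libraries there were 1180, 1501, 2613 and 17934 resting regions. The share with a peak in all 3 DMSO libraries was 8.14%, 18.3%, 34.5% and 80.3% in the same order. The median DMSO percentile was 35.3, 42.7, 49.8 and 73.6. A peak in an LPS+Skatole library, averaged over its 3 libraries, was found in 30.6%, 57.5%, 77.5% and 97.1%. Regions called in fewer LPS libraries were therefore also called in fewer DMSO and LPS+Skatole libraries and ranked lower in the resting cells, and the values at 0 LPS libraries continued those at 1, 2 and 3.

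**Figure D2:**
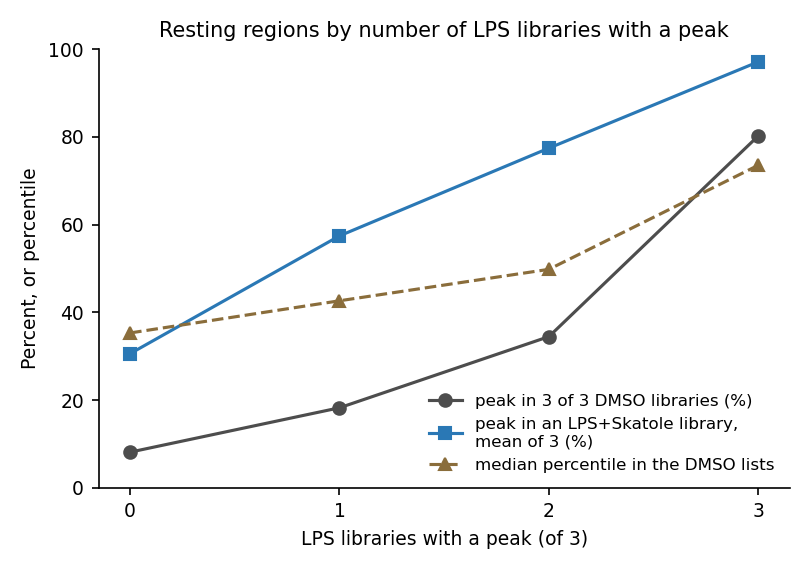
Resting regions (2 or 3 DMSO libraries with a peak) by the number of LPS libraries with a peak (horizontal axis). The vertical axis gives the share with a peak in all 3 DMSO libraries (circles), the mean share with a peak in an LPS+Skatole library (squares) and the median percentile in the DMSO lists (triangles); all 3 climb from 0 to 3 LPS libraries, the circles from 8.14% to 80.3%.

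The peaks of the lost regions were low and narrow in the resting cells. The median summit held 13 fragments in DMSO 1 (650 regions with a peak), 15 in DMSO 2 (795) and 16 in DMSO 3 (768). Kept regions had medians of 29, 35 and 34 in the same libraries. Relative to the genome background of each library the medians were 11.9, 10.7 and 11.8 times in lost and 26.6, 25 and 25 times in kept regions. The lowest summit that was called held 8, 9 and 9 fragments in the DMSO lists and 11 in each LPS list. The DMSO peaks themselves had a median width of 422, 443 and 422 bp in lost and 733, 806 and 779 bp in kept regions. The merged lost regions, which hold no LPS peak by the rule, were 256 to 2276 bp wide with a median of 755 bp. A percentile above 60 was reached by 61 lost regions (5.71%), beside 63.1% of kept regions, and one below 20 by 19.2% beside 1.38%. Within a lost region the DMSO summits lay 202 bp apart at the median, close to the 216 bp of kept regions.

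**Figure D3:**
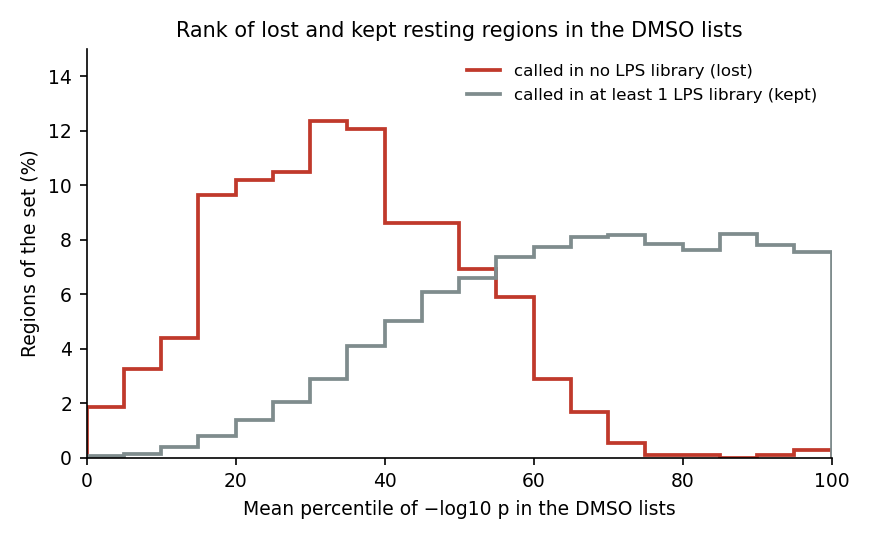
Share of regions (vertical axis, %) by mean percentile of −log10 p in the DMSO lists that hold them (horizontal axis, bins of 5), for lost regions (no LPS library with a peak) and kept regions (at least 1). The lost regions have their median at 34.1 and the kept regions at 68.3.

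The depth of the lists differed between groups. The genome background was 1.09 to 1.40 fragments in DMSO, 2.23 to 2.34 in LPS and 2.26 to 2.39 in LPS+Skatole, and the lists held 37551 to 43450, 55637 to 63498 and 78136 to 80153 peaks. The lowest called summit therefore stood at 6.44 to 7.34 times the genome background in DMSO and at 4.69 to 4.94 times in LPS. The median lost region, at 11.4 times the background in DMSO, would correspond to 26.1 fragments at the mean LPS background, above the 11 that the LPS lists needed on flat background. The DMSO heights chose the regions, so this sets the scale only. A raised local background, over 2 times the genome background in the mean of the DMSO peaks, was present at 223 lost regions (20.9%) and at 35.5% of kept regions. The gap to the nearest LPS peak had a median of 1525 bp. It was at most 1 kb for 399 lost regions (37.3%), and for 107 of them all 3 LPS libraries had such a peak. For 269 (25.2%) it exceeded 5 kb.

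Whether the DMSO-over-LPS pattern returns in libraries whose calls a selection did not use was asked next. The regions had been merged from the peaks of all 9 libraries, so a left-out library still helped to set their bounds. Its share is therefore not fully independent of the selection. Each of 9 selections left out 1 DMSO and 1 LPS library and took the regions with a peak in both other DMSO libraries and in neither other LPS library (573 to 850 regions). In the left-out DMSO libraries 23.3%, 30.4% and 29.4% of these regions had a peak. The left-out LPS libraries had a peak in 31.3%, 30.1% and 38.1%. The groups overlapped, and DMSO was not the higher. The means were 27.7% ± 3.87 (SD, n = 3) in DMSO and 33.2% ± 4.33 (SD, n = 3) in LPS, a difference of −5.50 percentage points (exact two-sided permutation test over libraries, p = 0.2). With 3 libraries against 3 this test cannot go below 0.1. The selections overlap each other and were not redone when the groups were permuted. Nothing in the sources says that the libraries came from separate cultures. The p-values therefore describe only how these library values divide between the groups.

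The order of the left-out shares depended on how the lists were made alike. With every list cut to the 37551 best-ranked peaks, the shares were 38.2%, 44.0% and 43.7% in DMSO and 35.2%, 33.6% and 36.1% in LPS. All DMSO libraries then lay above all LPS libraries, by 7.00 points in the mean (exact two-sided permutation test, p = 0.1, the smallest possible). With the fragments of every library thinned to the lowest genome background, DMSO had 35.5%, 41.1% and 40.3% and LPS 34.8%, 33.4% and 39.5%, a difference of 3.10 points (same exact test, p = 0.2). When only summits of at least 8 times the genome background were kept, the means were 34.1% in DMSO and 34.2% in LPS (exact p = 1). With peaks required to cover 50% of a region the difference was 0.481 points (exact p = 1), and with regions merged from summits −1.67 points (exact p = 0.6). Under the first 4 settings a left-out DMSO library held a peak in at most 44.0% of the selected regions.

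**Figure D4:**
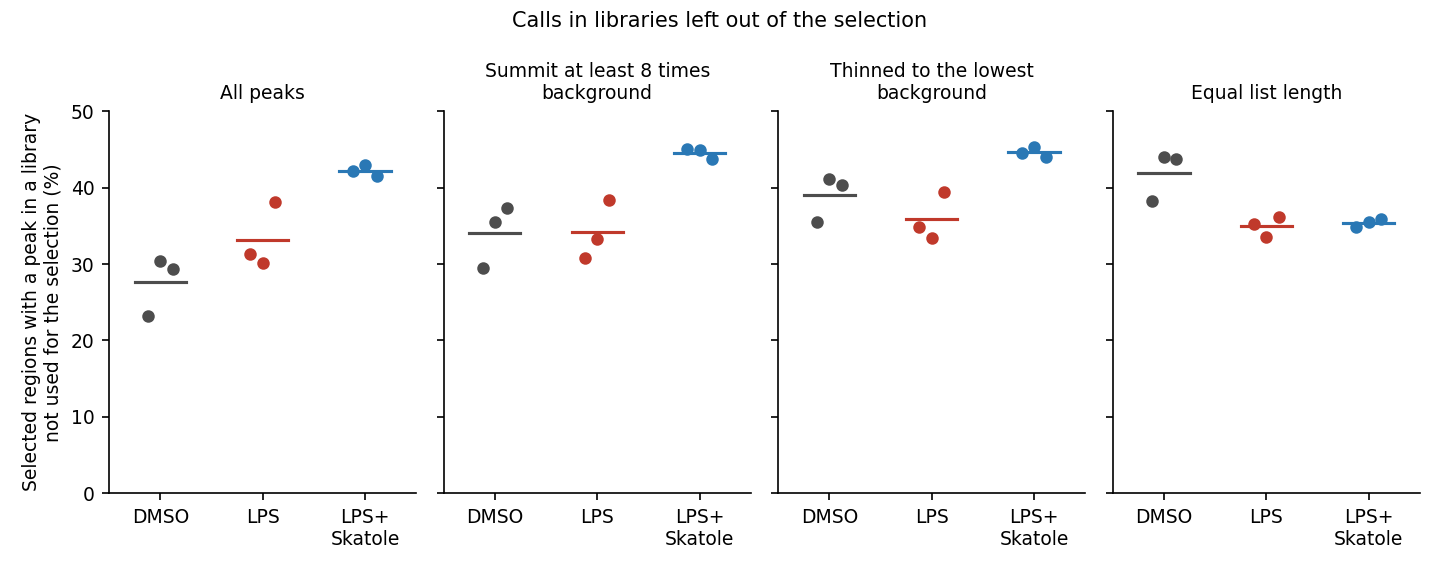
Share of selected regions with a peak in a library whose calls the selection did not use (vertical axis, %). Points are libraries and lines are group means, under 4 ways of preparing the lists. With all peaks the DMSO libraries lie at 23.3% to 30.4% and the LPS libraries at 30.1% to 38.1%; with lists of equal length the DMSO libraries lie higher, at 38.2% to 44.0% against 33.6% to 36.1%.

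The LPS+Skatole libraries took no part in those selections beyond the merging of peaks into regions. They had a peak in 42.2%, 43.0% and 41.5% of the selected regions, above every left-out LPS and DMSO library, with a mean of 42.3% ± 0.758 (SD, n = 3). Their mean exceeded that of LPS by 9.08 points and that of DMSO by 14.6 points (exact two-sided permutation tests, p = 0.1 each, the smallest possible). Each LPS+Skatole value is a mean over all 9 selections. Each DMSO or LPS value is a mean over only the selections that left that library out, so the SDs of the groups are not alike. After thinning, LPS+Skatole remained above LPS by 8.74 points and above DMSO by a smaller 5.64 points (exact p = 0.1 each). With the 8-fold summit filter, regions merged from summits and 50% cover, it lay above LPS by 10.4, 5.81 and 7.07 points. Above DMSO it lay by 10.5, 7.48 and 6.59 points under the same settings (exact p = 0.1 each). With lists of equal length the difference from LPS was 0.473 points (exact p = 0.7), and the difference from DMSO was −6.53 points (exact p = 0.1). The LPS+Skatole lists were the longest, at 78136 to 80153 peaks beside 55637 to 63498 in LPS and 37551 to 43450 in DMSO. No share over all merged regions is set beside the values above, so the higher share is not read as a result about these regions. The mean left-out LPS+Skatole share moved from 42.3% to 35.5% when the lists were made equal. It was 44.6% after thinning and 44.6% with the 8-fold summit filter. Over the 3 comparisons the smallest adjusted p could not reach 0.05 either.

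Of the 1069 lost regions themselves, 535 had a peak in 1 or 2 LPS+Skatole libraries and 534 in none. The individual LPS+Skatole libraries had a peak in 251, 260 and 239 of them. Where called, the summits held 26, 25 and 26 fragments at the median, or 11.1, 11.1 and 10.9 times the genome background, and ranked at percentiles of 50.3, 49.6 and 51.9. Regions with 0, 1 and 2 LPS+Skatole calls numbered 534, 320 and 215, and their median DMSO percentile was 28.4, 37.0 and 41.9. A peak in all 3 DMSO libraries was held by 21, 22 and 32 of them (3.93%, 6.88% and 14.9%). The lost regions that LPS+Skatole libraries also called were thus the higher-ranked ones in DMSO. The rule caps the LPS+Skatole calls at 2, and among the 111 regions left out by this cap the median percentile was 42.7 and 18.9% had all 3 DMSO libraries.

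The positions of lost regions relative to genes were not used by the rule. The highest DMSO summit lay within 3 kb of an end of a protein-coding gene for 260 lost regions (24.3%), inside a gene body farther from its ends for 540 (50.5%) and between genes for 269 (25.2%). Kept regions had 44.4%, 34.1% and 21.5%. Moved by 1 Mb, 10.6% of the lost and 12.3% of the kept summits were near a gene end. By DMSO library, the share of peaks near a gene end was 23.4%, 23.2% and 25.9% in lost and 47.8%, 46.8% and 47.1% in kept regions. The difference averaged −23.1 percentage points. The same libraries chose the regions and hold largely the same ones, so their shares are not independent, and the difference is given without a test.

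The difference was smaller at an equal number of DMSO libraries, a comparison chosen after seeing the data. Among regions with a peak in exactly 2 of 3 DMSO libraries, 236 of 994 lost regions (23.7%) and 1790 of 6479 kept regions (27.6%) were near a gene end. By DMSO library the difference among these regions was −5.00, −5.59 and −3.04 points. Split by rank as well, the share was 24.7% of 457 lost and 27.7% of 1631 kept regions at percentiles of 20 to 40. At 40 to 60 it was 27.1% of 280 and 26.1% of 2767, and at 60 to 80 it was 25% of 52 and 28% of 1713. Below 20 the sets were farther apart, with 16.8% of 202 lost and 37.6% of 250 kept regions, and above 80 there were 3 lost regions, none near a gene end. The share of resting regions that were lost fell along the same bands, from 44.5% below 20 to 21.5%, 9.07% and 2.93% in the 3 bands above it, among those with 2 of 3 DMSO libraries.

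**Figure D5:**
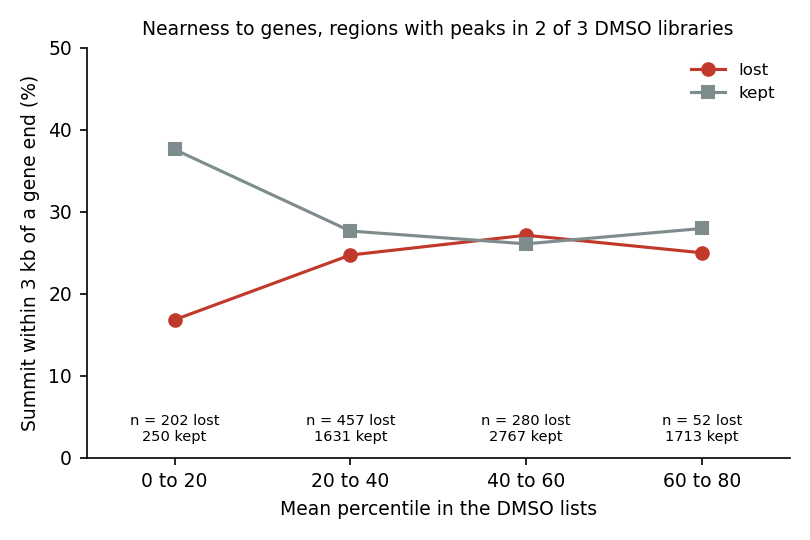
Share of regions whose highest DMSO summit lies within 3 kb of an end of a protein-coding gene (vertical axis, %), by mean DMSO percentile (horizontal axis), for lost and kept regions with a peak in exactly 2 of 3 DMSO libraries. The 2 lines lie within a few points of each other from 20 to 80 and apart below 20, where lost regions have 16.8% and kept regions 37.6%.

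Single regions stood out by height. The highest-ranked lost region was chr10:96077622-96077879, which lies between genes, 32149 bp from the end of Eea1 (an early endosome tethering protein). It had 7779, 8876 and 8574 fragments at its summit in the 3 DMSO libraries and no peak in any of the other 6. The region chr5:60042788-60043166, with no protein-coding gene end within 1765871 bp, had 5441 and 6268 fragments in DMSO 1 and 3, no peak in DMSO 2 and none in the treated libraries. Both are narrow, at 258 and 379 bp, and stood on a local background of 412 and 303 times the genome background. No list of problem regions of the genome was applied. The other 3 lost regions with a percentile above 80 were also under 400 bp wide. They were chr12:59262916-59263213 (76, 121 and 100 fragments in DMSO and 108 in LPS+Skatole 2; 41080 bp from Fbxo33), chr1:34752920-34753175 in Arhgef4 (75 and 94 in DMSO 2 and 3) and chr16:91534585-91534842 (82 and 79 in DMSO 2 and 3 and 101 in LPS+Skatole 2; 12391 bp from Ifngr2, an interferon-γ receptor chain gene). In all 5, every DMSO peak was under 400 bp wide, which held for 19 of 6886 kept regions with a percentile above 80 (0.276%). The first pair held 5441 to 8876 fragments per DMSO peak, while the other 3 regions had 75 to 121 in DMSO. Their grouping by width was noticed after the values were seen. By count rather than rank, 3 other lost regions came next. They were chr17:39843034-39843343 (nearest gene end Esp38) with 754 and 963 in DMSO 1 and 2, chr11:109011707-109012071 (nearest gene end Axin2) with 307 and 268 in DMSO 2 and 3, and the region in Filip1l and Cmss1 given next. The first of these stood on a local background of 519 times the genome background and the second on 113 times.

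Among the next lost regions called in all 3 DMSO libraries, a region in Filip1l and Cmss1 (chr16:57391262-57391648) was the highest in fragments, with 223, 309 and 326 fragments in DMSO and 343 in LPS+Skatole 1, on a local background of 112 times the genome background. In St7 the counts were 18, 30 and 28, and the region was called in LPS+Skatole 1 and 3 with 69 and 41. The region 4591 bp from an end of Vdr, the vitamin D receptor gene (chr15:97849149-97850129), had 17, 36 and 15 in DMSO and 29 and 21 in LPS+Skatole 2 and 3. In Ripor1 they were 40, 24 and 43, and in Asb2, a substrate adaptor of a ubiquitin ligase, 44, 45 and 55. Near Cwc25, a splicing factor gene (229 bp from its end), there were 28, 51 and 50 fragments and no call in the treated libraries. Far from genes, a region 106459 bp from Otoa had 30, 35 and 16, and one 359165 bp from Actbl2 had 14, 29 and 16. Arrdc3, described above, is also among the 12 highest by percentile. Of these 12, 10 were called in at least 1 LPS+Skatole library, beside 54 of the 75 lost regions with all 3 DMSO libraries (72%).

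Near gene ends, the 12 highest-ranked lost regions had percentiles of 61.4 to 77.4, and each was called in 2 DMSO libraries. The highest lay 224 bp from Gm5165, with 74 and 65 fragments in DMSO 2 and 3. In Ppp2cb, a catalytic subunit of protein phosphatase 2A, the counts were 26 and 21, and in Elovl6, a fatty acid elongase gene, 40 and 32. A region beside Snx9, an endocytic sorting nexin gene, had 27 and 18 in DMSO 1 and 3. In Map4k1, a kinase of immune-cell signalling, there were 30 and 48 in DMSO 1 and 3, and 34 and 40 in LPS+Skatole 1 and 2. The remaining 7, in or at Rmnd5a, Syna, Nmrk2, Pcgf5, Seh1l, Fbxo5 and Pag1, had 18 to 40 fragments per DMSO peak. Of the 12, 9 had a call in at least 1 LPS+Skatole library, beside 137 of all 260 lost regions near gene ends (52.7%).

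Across genes, 822 of 21887 protein-coding genes (3.76%) had a lost region inside or within 3 kb, and 707 of these (86%) also had a kept region, as did 11327 of all 21887 genes. In 9 gene lists of macrophage and NF-κB biology with 270 genes in the gene table, 14 genes had 17 lost regions, beside 524 kept regions at 225 genes. Lost regions were thus 3.14% of the lost and kept regions counted at these lists, beside 4.6% of all resting regions. The counts by list carry no test.

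Genes of the NF-κB system held 1 lost region at 1 of 24 genes, beside 62 kept regions at all 24. This was 1.59% lost, with 4.6% over all resting regions. The gene was Tnip1, which encodes an inhibitor that works with A20, and its region, inside the gene (chr11:54922108-54922939) had 14 and 11 fragments in DMSO 1 and 2 and 24 in LPS+Skatole 2. The 21 LPS receptor and adaptor genes had 0 lost regions and 18 had a kept one. Cytokine and chemokine genes had 0 lost regions among 38, and 23 had a kept one. The 27 glutathione and redox genes and the 24 respiratory chain genes also had 0, with kept regions at 21 and 24 of them. In the order given, the lists with 0 lost regions held 40, 35, 34 and 33 kept regions. At 4.6% lost over all resting regions, lists of this size would hold few lost ones. The counts of 0 are therefore no result about these genes.

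Macrophage lineage factors held 5 lost regions at 4 of 40 genes, beside 120 kept regions at 33 genes (4% lost, with 4.6% over all resting regions). In Fli1, an ETS factor gene, there were 30 and 20 fragments in DMSO 2 and 3, and 17 and 35 in LPS+Skatole 2 and 3. Irf5, an interferon regulatory factor that acts downstream of Toll-like receptors, had a region 352 bp from its end with 60 and 42 in DMSO 2 and 3, and 72 and 63 in LPS+Skatole 1 and 2. LPS peaks lay 485 to 622 bp from it. Mitf had 1 region with 21 and 14 in DMSO 1 and 2 and another with 12 and 11 in DMSO 2 and 3. Runx1 had 12 and 10 in DMSO 1 and 2. Of these 5 regions, 5 were called in at least 1 LPS+Skatole library, beside 535 of all 1069 lost regions.

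Cell cycle genes held 5 lost regions at 4 of 32 genes, beside 76 kept regions at 30 genes (6.17% lost). Plk1 is given above with its promoter. In Cdk1, the mitotic cyclin-dependent kinase gene, a region had 20 and 17 fragments in DMSO 1 and 2, and 53 and 37 in LPS+Skatole 1 and 3. Pcna, the sliding clamp of DNA replication, had 21 and 24 in DMSO 1 and 3 and no call in treated cells, with an LPS peak of each library 865 to 926 bp away. Mki67 had a region with 17 and 14 in DMSO 2 and 3 and 17 in LPS+Skatole 2. Another, in the neighbouring gene Ptpre, had 9 and 12 in DMSO 2 and 3, and 24 and 22 in LPS+Skatole 1 and 2.

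MAPK and calcium signalling genes held 4 lost regions at 3 of 36 genes, beside 77 kept regions at 32 genes (4.94% lost). Mapk14, which encodes p38α, had 25 and 27 fragments in DMSO 1 and 3 and 31 in LPS+Skatole 1. Mapk8, which encodes JNK1, had 9 and 21 in DMSO 1 and 2, no call in treated cells and LPS peaks 751 to 813 bp away. Nfatc3 had a region with 8 and 17 in DMSO 1 and 3, and 17 and 22 in LPS+Skatole 2 and 3. Its other region had 12 and 10 in DMSO 1 and 3 and no call in treated cells. Alternative activation genes held 2 lost regions at 2 of 28 genes, beside 47 kept regions at 20 genes (4.08% lost). Jak1 had 16 and 28 in DMSO 1 and 2 with 21 in LPS+Skatole 1. A region 224 bp from Mgl2, a lectin gene of alternatively activated macrophages, had 16 and 9 in DMSO 1 and 3 and no call elsewhere. The lowest of these counts, 8 and 9, are the lowest that the DMSO lists contain.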

How the data were processed

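CUT&Tag libraries of 12-h treated RAW264.7 cells (3 each of DMSO, LPS and LPS+Skatole) were used as deposited peak lists, 1 per library. The submitters' processing notes name the build mm10 and the tools fastp 0.20.1, HISAT2 2.1.0 and StringTie 2.0 without their roles. The peak caller was not given in the sources used here. The deposited score of a peak, its fold (a ratio of the summit to the local background) and its −log10 p and −log10 q are the authors' values, and every list ends just above a −log10 p of 5. The deposited summit position gave the place of each peak.

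Summit counts were recovered from the deposited fold and −log10 p, taking the fold as (count + 1)/(background + 1) and p as an upper Poisson tail. At least 99.99% of counts came out within 0.05 of a whole number. Total reads were not used here, so the genome background, the background of 54.1% to 62% of the peaks of a list, served as relative depth. Gene ends came from the RefSeq GRCm38.p6 gene table and starts from its promoter table. As a check of the build, 24% of kept summits lay within 250 bp of a start, against 1.22% and 1.35% after shifts of 10 kb up and down, and 3.55% of lost summits against 1.06% after either shift, chromosome 18 not being used for starts or motifs.

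Members and gene lists were chosen with earlier results of these data known. Named regions were the 12 highest by DMSO percentile among those in 3 of 3 DMSO libraries, the 12 highest near gene ends, and at most 5 per gene list. Regions over gene starts and those above percentile 80 were named after their values were seen. Items withheld from this text are not reported here. Tests of the left-out shares were exact permutation tests over libraries. The shares were checked on calls simulated without group differences in depth, so the unequal lists of these data were not covered. The planned sign-flip test of the gene-end share is not given, since the DMSO libraries it compares chose the regions. Alternatives were lists of equal length, thinned summit counts, a summit filter of 8 times the background and peaks covering 50% of a region. Others were regions merged from windows of 250 bp on each side of a summit and a gene-end window of 1 kb. Each library was also left out, and a replicate block was used. Analyses used Python 3.11.15, NumPy 2.4.6, pandas 2.3.3 and SciPy 1.17.1.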

Additional observations from a re-analysis of the deposited data

How the results depend on the processing

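The number of lost regions was 1069. With lists of equal length, thinned summit counts, the 8-fold summit filter or peaks covering 50% of a region it was 983 to 1552. It was 1629 with regions merged from summits and 75 with a peak required in all 3 DMSO libraries. Leaving out 1 library gave 352 to 1522, with 352 to 497 when a DMSO library was left out, where both others were required. Of the 1069, 544 (50.9%) overlapped a lost region under the 50% cover setting and 926 (86.6%) under merging from summits. The left-out difference of DMSO from LPS changed sign to 7.00 points at equal list length to 3.10 points after thinning and to 0.481 points with 50% cover. That of LPS+Skatole from DMSO changed sign to −6.53 points at equal list length and was 5.64 points after thinning. The cause was not tested.

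Without 1 library the 3 differences ran from −7.04 to −3.02 (DMSO against LPS), 7.54 to 11.6 (LPS+Skatole against LPS) and 12.4 to 16.0 points (LPS+Skatole against DMSO), and the gene-end difference from −24.0 to −22.4. With a replicate block they were −5.50 (exact sign-flip p = 0.5), 9.08 (p = 0.25) and 14.6 points (p = 0.25). Same-numbered libraries had r from −0.0096 to 0.0097 over 49753 regions, beside −0.0095 to 0.0086 for other-numbered ones. What the numbers stand for is not stated, and these values cannot show whether they pair the libraries. These designs could not reach 0.05 under any setting, and a site below the call threshold counts as absent.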

Other observations

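Lost regions were spread over the genome. Per chromosome they made up 3.52% (chromosome 5) to 7.25% (chromosome 16, 57 of 786) of the resting regions, with 0 of 21 on chromosome Y. No gene held more than 3 lost regions, and 10 genes held 3 each. They included Cux1, Fgd4, Snd1, Spred1, Tnpo1, Ubac2, Ubn2 and the overlapping pair Cmss1 and Filip1l, which share the same regions. On sequences outside chromosomes 1 to 19, X and Y, 173 merged regions were found, and 0 met the rule.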
